A study of Mus musculus with 13 samples.

Results

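The genes described here encode the parts that fasten basal keratinocytes to the basement membrane. They are 3 laminin chains (*Lama3*, *Lamb3* and *Lama5*), 3 integrin chains (*Itga3*, *Itga6* and *Itgb4*), the cytoskeletal linkers *Dst* and *Plec*, and the basement membrane linker *Nid1*. All 9 were found among the 49315 genes in the count files. All 9 were also among the 20168 genes that had enough counts to be tested.

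Basal keratinocytes sit on a sheet of extracellular matrix and hold on to it through hemidesmosomes. In a hemidesmosome the integrin α6β4 binds laminin-332 outside the cell, while plectin and the epithelial form of dystonin tie the integrin to keratin filaments inside it. Beside these junctions, integrin α3β1 binds the same laminins, laminin-511 adds a further ligand, and nidogen bridges the laminin network to collagen IV. Loss of several of these proteins makes skin blister.

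Total RNA was sequenced from full-thickness back skin of 6 mice at P4, with 1 library for each mouse. The 3 controls were WT littermates, and the 3 others carried *K14Cre* with both floxed genes homozygous (*K14Cre+Kctd1 fl/flKctd15 fl/fl*, DKO in the labels). *K14Cre* targets keratinocytes, and fibroblasts, vessels, nerve, muscle and other cells of the sampled skin are not its target. Which cells lost *Kctd1* and *Kctd15* was not measured here. Titles of both genotypes also share a number whose meaning the labels do not give: 40972 for WT replicate 3 and DKO replicate 1, and 47347 for the other 4 libraries. Counts on genes came to 14836798, 17643043 and 17470709 in the WT libraries, and to 11263863, 14950538 and 15050299 in the libraries labelled DKO, here and later in the order of their replicate numbers.

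Whole-gene levels of the targeted genes, after normalization, were not lower in the libraries labelled DKO. *Kctd1* had 435, 483 and 517 counts in WT and 385, 893 and 738 in the libraries labelled DKO. *Kctd15* had 722, 868 and 892 counts in WT and 860, 1368 and 1331 in the libraries labelled DKO. After normalization both genes were higher in all 3 libraries labelled DKO than in any WT library, with log2 fold changes of 0.78 (95% interval 0.29 to 1.27, edgeR adjusted p = 0.342) and 0.83 (0.51 to 1.14, edgeR adjusted p = 0.107). Without DKO replicate 1 the edgeR adjusted p was 0.0335 for *Kctd1* and 0.0173 for *Kctd15*, the lowest values with any 1 library left out, and the highest were 0.929 and 0.619. DESeq2 gave adjusted p values of 0.0747 and 0.000591. A count over a whole gene includes the exons outside the floxed part and the cells without Cre, so these totals do not check the deletion, and the libraries are called by their labels throughout.

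The libraries labelled DKO stood further apart from each other than the WT libraries did. Over tested genes, the chi-square statistic per gene between pairs of WT libraries lay between 8.80 and 12.7. Between pairs labelled DKO it lay between 25.2 and 55.7, with the largest value between replicates 1 and 2. DKO replicate 1 held the highest summed level of 17 skeletal muscle markers and the lowest of 7 hair matrix markers, and DKO replicate 2 held the highest of 5 basal keratinocyte markers. The share of counts on mitochondrial genes was 3.11%, 2.74% and 3.59% in WT and 4.01%, 2.22% and 3.37% in the libraries labelled DKO. The TMM factor was 0.922 for DKO replicate 2 and between 1.01 and 1.03 for the other 5 libraries. The part of these differences between libraries in the values below was not tested.

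None of the 9 genes differed between the groups past the threshold used here, an adjusted p under 0.05 with a log2 fold change beyond 1 in either direction. edgeR called 0 of 9, against 0.0694% of all tested genes. DESeq2 also called 0 of 9, against 0.827% of the 18389 genes to which it gave an adjusted p. At an unadjusted p under 0.05 edgeR returned 1 of 9, *Nid1*, against 7.5% of all tested genes. In 0 of 9 genes did the 3 libraries of a group all lie above the 3 of the other, against 13.2% of tested genes. With so few calls among all genes, a count of 0 says little about the 9.

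The estimates leaned to higher values in the libraries labelled DKO, but weakly. The log2 fold change was above 0 for all 9 genes with TMM scaling, against 52.9% of tested genes, and for 7 of 9 with total counts, where *Lama3* and *Itga3* turned below 0. The median log2 fold change was 0.12, beside 0.02 over all tested genes. Leaving out DKO replicate 2 left 5 of 9 above 0 and a median of 0.01, whereas leaving out DKO replicate 1 left 9 of 9 and a median of 0.21. For 5 of 9 genes (*Lama3*, *Lamb3*, *Itga3*, *Itga6* and *Dst*) the 95% interval lay inside a 1.5-fold change either way, against 38.4% of tested genes. The intervals of the other 4 reached beyond a 1.5-fold rise. An exact two-sided permutation test over 3 against 3 libraries cannot go below 0.1, and it gave between 0.2 and 1 for the 9 genes.

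**Figure D1:**
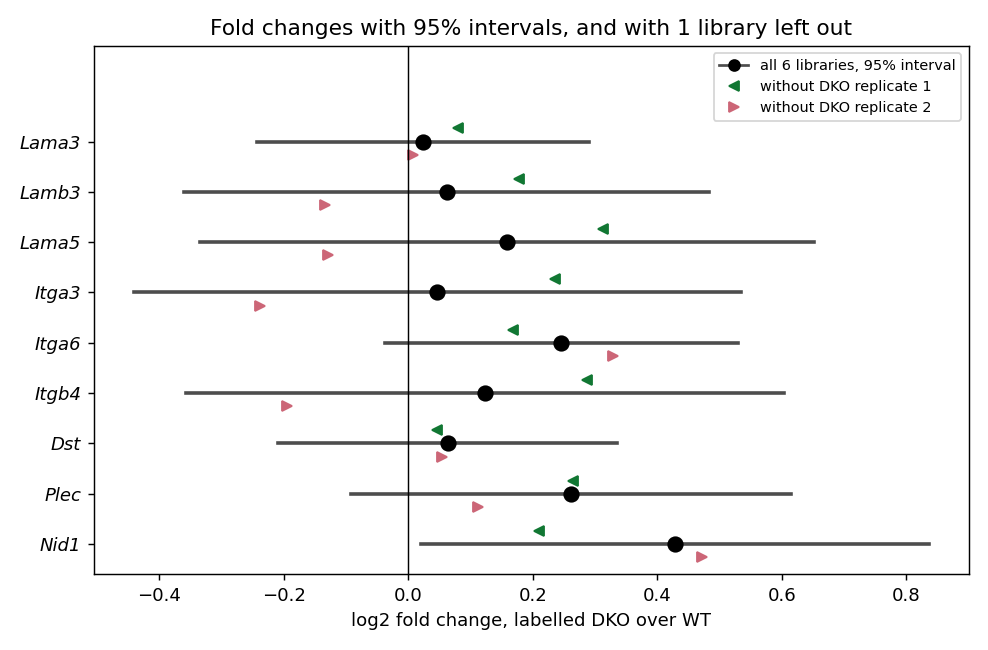
Log2 fold change of each of the 9 genes, libraries labelled DKO over WT, on the horizontal axis. Black points and bars give the estimate and its 95% interval from 3 against 3 libraries with TMM scaling; triangles give the estimate without DKO replicate 1 or without DKO replicate 2. All 9 black points lie above 0 with TMM scaling (7 with total counts), and without DKO replicate 2 the points of *Lamb3*, *Lama5*, *Itga3* and *Itgb4* lie below 0.

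The laminin chains are the ligands that integrins bind. *Lama3* encodes the α3 chain and *Lamb3* the β3 chain of laminin-332, and *Lama5* encodes the α5 chain of laminin-511. Levels are given as CPM (normalized counts scaled to a common library size) per kb of counted gene length, which allows genes to be compared. *Lama3* had levels of 11.9, 11.9 and 12.5 in WT and 11.1, 12.7 and 13.2 in the libraries labelled DKO. Its groups overlapped, with a log2 fold change of 0.02 (95% interval -0.24 to 0.29, edgeR adjusted p = 0.981) that lay between -0.03 and 0.08 when any 1 library was left out. Within title numbers 40972 and 47347 the log2 differences of *Lama3* were -0.17 and 0.12.

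*Lamb3*, the least abundant of the 9 genes with 301 to 602 counts per library, had levels of 4.96, 5.09 and 4.06 in WT and 3.94, 6.18 and 4.59 in the libraries labelled DKO. *Lama5* had levels of 41.1, 41.9 and 31.8 in WT and 31.9, 58.4 and 37.9 in the libraries labelled DKO. In both genes DKO replicate 2 was the highest of the 6 libraries, while DKO replicate 1 and WT replicate 3, which share a title number, were the lowest. The log2 fold change was 0.06 (95% interval -0.36 to 0.48) for *Lamb3* and 0.16 (-0.33 to 0.65) for *Lama5*, with edgeR adjusted p values of 0.975 and 0.946. Without DKO replicate 2 both became -0.13, and without DKO replicate 1 they were 0.18 and 0.31. Within title numbers 40972 and 47347, the log2 differences were -0.04 and 0.08 for *Lamb3* and 0.00 and 0.18 for *Lama5*.

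The integrin chains are the receptors. *Itga6* and *Itgb4* encode the partners of α6β4, the core of the hemidesmosome, and *Itga3* encodes the α chain of α3β1. *Itgb4* had levels of 15.6, 16.3 and 15.4 in WT and 12.5, 24.03 and 14.9 in the libraries labelled DKO. *Itga3* had levels of 12.4, 13.8 and 12.2 in WT and 9.15, 18.1 and 12.5 in the libraries labelled DKO. In both genes the WT libraries lay close together, DKO replicate 2 lay above all of them and DKO replicate 1 below all of them. DKO replicate 3 lay just below all WT libraries for *Itgb4* and among them for *Itga3*. The coefficient of variation was 3.07% in WT and 35.4% in the libraries labelled DKO for *Itgb4*, and 6.70% and 34.1% for *Itga3*.

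The difference in group means was small beside this spread. Estimated log2 fold changes were 0.12 (95% interval -0.36 to 0.60, edgeR adjusted p = 0.957) for *Itgb4* and 0.05 (-0.44 to 0.53, edgeR adjusted p = 0.979) for *Itga3*. They changed sign with the library left out, to -0.19 and -0.24 without DKO replicate 2, and were 0.29 and 0.24 without DKO replicate 1. Within title number 40972 the log2 differences were -0.30 and -0.42, and within 47347 they were 0.25 and 0.20.

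*Itga6* did not follow its partner. Its levels were 19.6, 21.2 and 22.4 in WT and 27.2, 22.2 and 25.5 in the libraries labelled DKO, so that DKO replicate 1 was the highest and the groups met only where DKO replicate 2 lay below WT replicate 3. The log2 fold change was 0.25 (95% interval -0.04 to 0.53, edgeR adjusted p = 0.760). It was above 0 whichever library was left out, between 0.17 and 0.33, and was 0.28 and 0.22 within title numbers 40972 and 47347.

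**Figure D2:**
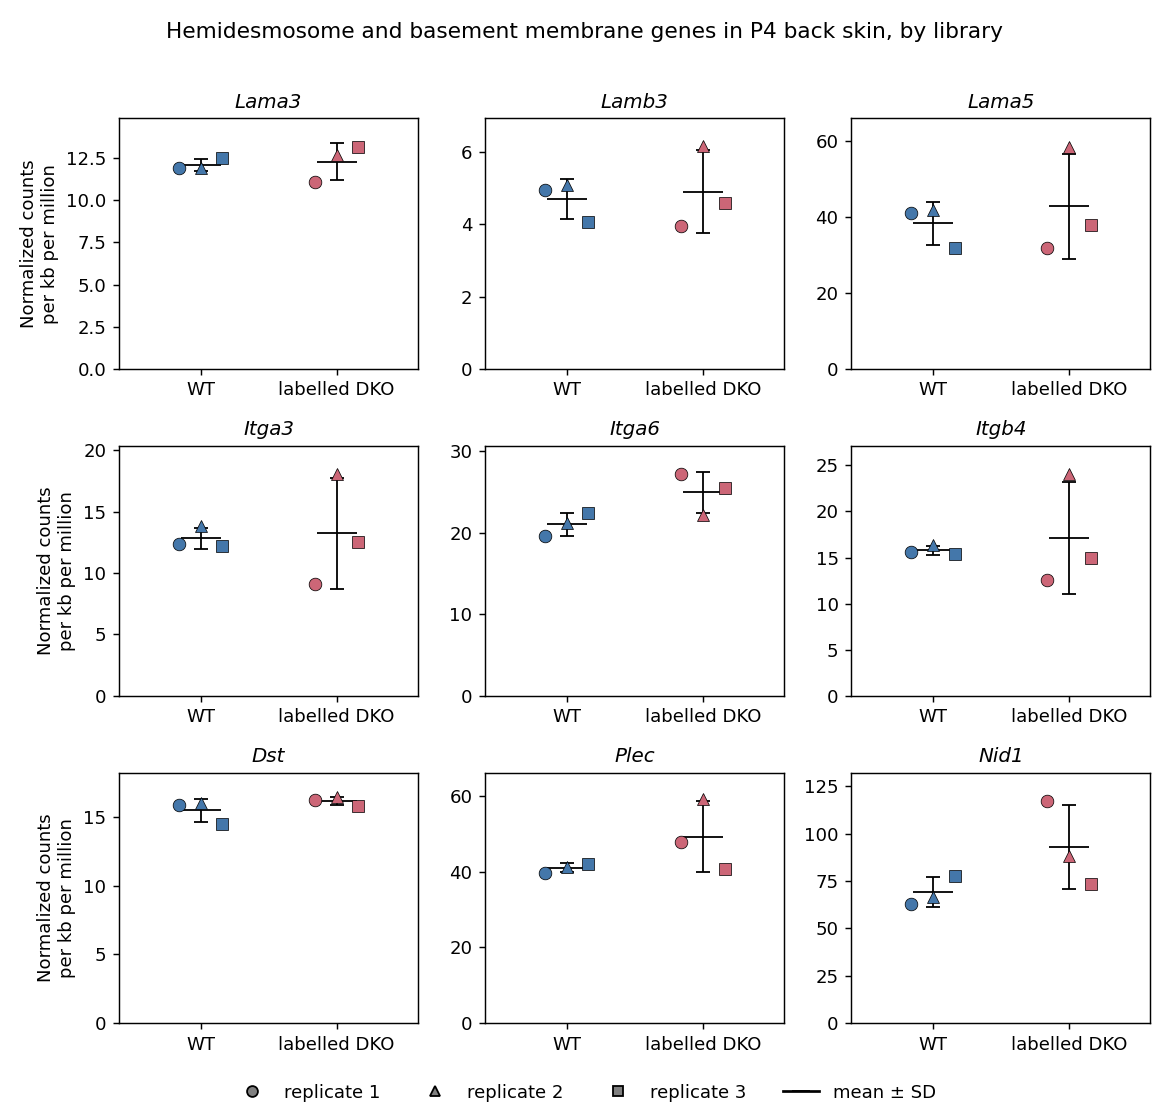
Level of each of the 9 genes in every library, as TMM-normalized CPM per kb of counted length on a vertical axis that starts at 0, for 3 WT libraries (blue) and 3 libraries labelled DKO (red). Symbols give the replicate, and the bars the mean ± SD (n = 3). *Itgb4* ranges from 15.4 to 16.3 in WT and from 12.5 to 24.03 in the libraries labelled DKO, while *Dst* stays between 14.5 and 16.5 in all 6.

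Plectin and dystonin are plakins, very large proteins that join the integrin tail to intermediate filaments. *Plec* had levels of 39.8, 41.4 and 42.2 in WT and 47.9, 59.3 and 40.7 in the libraries labelled DKO. DKO replicates 1 and 2 lay above every WT library and DKO replicate 3 among them, for a log2 fold change of 0.26 (95% interval -0.09 to 0.61, edgeR adjusted p = 0.819). It was 0.11 without DKO replicate 2, 0.27 without DKO replicate 1, and 0.18 and 0.28 within title numbers 40972 and 47347. *Plec* is also made in muscle, and its values are not specific to keratinocytes.

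*Dst* was the steadiest of the 9 genes in the libraries labelled DKO. Its levels were 15.9, 16.1 and 14.5 in WT and 16.3, 16.5 and 15.9 in the libraries labelled DKO, with coefficients of variation of 5.51% and 1.90%. The log2 fold change was 0.06 (95% interval -0.21 to 0.34, edgeR adjusted p = 0.961), and it was 0.16 and 0.02 within title numbers 40972 and 47347. With any 1 library left out it lay between 0.0069 (without WT replicate 3) and 0.082. *Dst* gives rise to epithelial, neural and muscle forms, which a count over the whole gene does not separate.

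*Nid1* (ENSMUSG00000005397, chr13:13437602-13512275 in GRCm38) encodes nidogen-1 and is made mainly by mesenchymal cells. Its levels were 62.8, 66.7 and 77.8 in WT and 117, 88.0 and 73.6 in the libraries labelled DKO. DKO replicates 1 and 2 lay above every WT library, and DKO replicate 3 lay below WT replicate 3. The log2 fold change of 0.43 was the largest of the 9 (95% interval 0.02 to 0.84), with an unadjusted p of 0.041 and an adjusted p of 0.637 in edgeR. Without DKO replicate 1 it was 0.21, without DKO replicate 2 it was 0.47, and within title numbers 40972 and 47347 the log2 differences were 0.59 and 0.31. In bulk skin, more or fewer cells of a type and more or less RNA per cell cannot be told apart, here or for any other gene.

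A wider spread among the libraries labelled DKO was shared by 8 of 9 genes, all but *Dst*, but also by 74.1% of all tested genes. The median SD of log2 CPM over the 9 genes was 0.09 in WT and 0.33 in the libraries labelled DKO. Over all tested genes these medians were 0.16 and 0.30. In 3 of 9 genes (*Lamb3*, *Itga3* and *Itgb4*) DKO replicate 2 was the highest and DKO replicate 1 the lowest of the 6 libraries, against 11.9% of tested genes. *Col17a1* and *Cd151*, which encode further hemidesmosome proteins, had the same highest and the same lowest library, but not the same order between them.

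The order of the levels per kb was the same in both groups. In WT the mean level was 69.1 ± 7.79 (SD, n = 3) for *Nid1*, 41.1 ± 1.23 for *Plec*, 38.3 ± 5.60 for *Lama5* and 21.1 ± 1.41 for *Itga6*. Below these came *Itgb4* with 15.8 ± 0.484, *Dst* with 15.5 ± 0.854, *Itga3* with 12.8 ± 0.859, *Lama3* with 12.1 ± 0.335 and *Lamb3* with 4.70 ± 0.562. Among neighbours in this order, *Plec* and *Lama5*, *Itgb4* and *Dst*, and *Itga3* and *Lama3* overlapped in WT. The libraries labelled DKO added overlaps of *Itga6* with *Itgb4* and of *Dst* with *Itga3*. The highest and the lowest gene differed 14.7-fold in WT, and the 9 genes together took 0.275% to 0.288% of all counts in WT and 0.288% to 0.331% in the libraries labelled DKO.

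Ratios of counts per kb between partner genes do not depend on how libraries are scaled, and 7 such ratios were compared by exact two-sided permutation tests, whose p cannot go below 0.1. The *Itga6* to *Itgb4* ratio was 1.26, 1.30 and 1.45 in WT and 2.17, 0.923 and 1.71 in the libraries labelled DKO. Protein chains of α6β4 pair in equal number, but a transcript ratio in bulk skin covers every cell that makes either gene and does not measure this pairing. In the libraries labelled DKO the ratio spanned both sides of the WT range, with a log2 difference of 0.18 (exact permutation p = 0.7, adjusted p = 0.933). The difference was -0.09 without DKO replicate 1 and 0.53 without DKO replicate 2, and it was 0.58 and -0.02 within title numbers 40972 and 47347.

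The *Col17a1* to *Itgb4* ratio was steadier, at 3.87, 3.89 and 4.10 in WT and 4.43, 3.60 and 4.42 in the libraries labelled DKO. Its groups overlapped, with a log2 difference of 0.065 (exact permutation p = 0.5, adjusted p = 0.933) that was 0.015 without DKO replicate 1 and 0.16 without DKO replicate 2. Collagen XVII binds the β4 chain in the hemidesmosome, and the levels of both genes followed the same order of libraries in the DKO group. The *Lama3* to *Lamb3* ratio, between chains of laminin-332, lay between 2.34 and 3.08 in WT and between 2.05 and 2.87 in the libraries labelled DKO. The groups overlapped, with a log2 difference of -0.02 that became 0.13 without DKO replicate 2.

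In 1 of the 7 ratios the groups did not overlap. The *Nid1* to *Nid2* ratio, between the genes of both nidogens, was 2.33, 2.21 and 1.99 in WT and 3.52, 2.58 and 2.88 in the libraries labelled DKO. The log2 difference was 0.45 (exact permutation p = 0.1, the smallest that the design allows, adjusted p = 0.7 over 7 ratios), and it lay between 0.33 and 0.55 with any 1 library left out. Within title numbers 40972 and 47347 it was 0.82 and 0.26. Levels of *Nid2* itself overlapped, at 26.9, 30.2 and 39.1 in WT and 33.4, 34.2 and 25.6 in the libraries labelled DKO. The remaining ratios gave log2 differences of -0.25 for *Itga3* to *Itga6*, -0.18 for *Dst* to *Plec* and -0.10 for *Lama3* to *Lama5*, with overlapping groups and exact permutation p values of 0.6, 0.3 and 0.8. *Itga3* to *Itga6* became 0.05 without DKO replicate 1 and -0.59 without DKO replicate 2. Without DKO replicate 2, *Dst* to *Plec* became -0.05 and *Lama3* to *Lama5* 0.13.

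**Figure D3:**
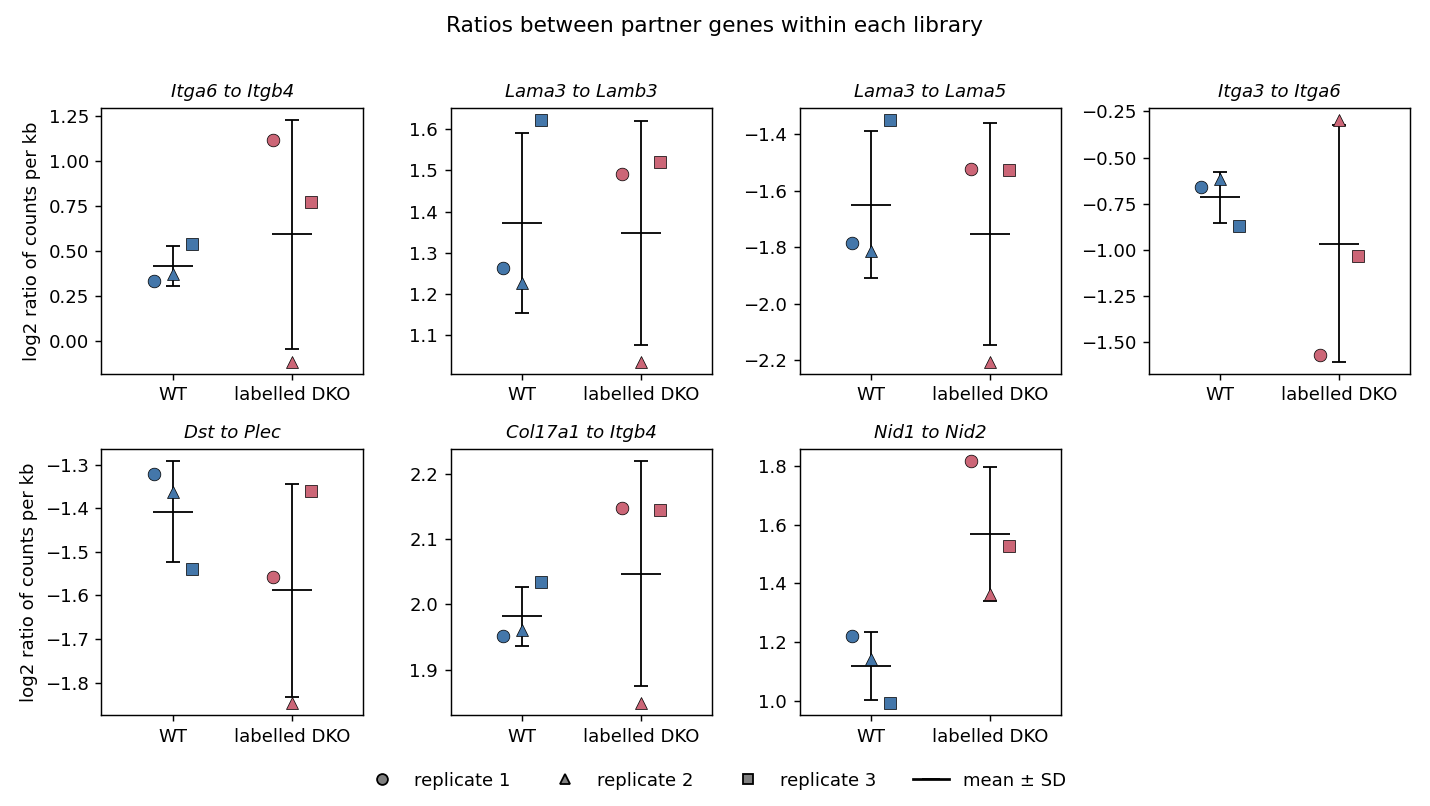
Log2 ratio of counts per kb between partner genes in each library, for 3 WT libraries (blue) and 3 libraries labelled DKO (red), with the mean ± SD (n = 3) as bars and a separate vertical scale in each panel. The groups are apart in the *Nid1* to *Nid2* panel, where the ratio lies between 1.99 and 2.33 in WT and between 2.58 and 3.52 in the libraries labelled DKO, and they overlap in the other 6.

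Further genes of the dermal-epidermal junction were taken from 8 lists, with 54 genes, of which 52 were tested. edgeR called 0 of 52 and DESeq2 called 1, against 0.0694% and 0.827% of all genes given an adjusted p by each. The log2 fold change was above 0 for 39 of 52 with TMM scaling and 35 of 52 with total counts, against 52.9% of tested genes. The median was 0.16, and 0.069 without DKO replicate 2. At an unadjusted p under 0.05, edgeR returned 10 genes that were higher and 2 that were lower in the libraries labelled DKO, against 7.5% of tested genes in either direction.

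The direct partners *Col17a1* and *Cd151* were highest in DKO replicate 2 and lowest in DKO replicate 1, as *Itgb4* was. The same held for 3 of 4 other plakins tested, against 11.9% of tested genes, so it was not particular to hemidesmosome genes. *Col17a1* (collagen XVII) had levels of 60.3, 63.5 and 63.1 in WT and 55.5, 86.6 and 66.1 in the libraries labelled DKO. *Cd151*, a tetraspanin that associates with α3β1 and α6β4, had 17.9, 18.5 and 19.7 in WT and 16.3, 27.8 and 16.4 in the libraries labelled DKO. The groups overlapped in both genes, with log2 fold changes of 0.16 and 0.11 that became -0.03 and -0.19 without DKO replicate 2, and 0.28 and 0.22 without DKO replicate 1.

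The other laminin chains occur in basement membranes around vessels, nerve and muscle as well as under the epidermis. All 7 were higher in the libraries labelled DKO under each scaling tried, against 52.9% of tested genes with TMM scaling, with a median log2 fold change of 0.33. Markers of skeletal muscle (17 of 17, median 1.05) and dermal fibroblasts (8 of 8, median 0.24) were also all higher. Most Schwann cell (7 of 8, median 0.27) and endothelial (6 of 8, median 0.22) markers were higher too. The part of these cells in the laminin values was not tested. Without DKO replicate 1, 6 of 7 were higher, with a median of 0.21. The median was also 0.21 without DKO replicate 2, and it was 0.44 when DKO replicate 3 was left out. An unadjusted p under 0.05 was returned for 2 of them, against 7.5% of tested genes, and the groups did not overlap in 4, against 13.2%. *Lamc3* had levels of 6.15, 6.29 and 5.39 in WT and 8.53, 10.1 and 7.18 in the libraries labelled DKO (log2 fold change 0.53, 95% interval 0.18 to 0.89, edgeR adjusted p = 0.370). *Lama2*, the α chain of the muscle and nerve laminin, had 11.4, 11.7 and 12.3 in WT and 19.1, 14.4 and 13.3 in the libraries labelled DKO (log2 fold change 0.40, 0.06 to 0.74, edgeR adjusted p = 0.540). Their groups did not overlap, and DKO replicate 1 held the highest *Lama2* level. Without it the log2 fold change of *Lama2* was 0.21.

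The anchoring fibril and Fraser complex list covers proteins that tie the basement membrane to the dermis. All 7 tested genes were higher in the libraries labelled DKO under each scaling tried, against 52.9% of tested genes with TMM scaling, with a median log2 fold change of 0.34. The skeletal muscle and dermal fibroblast markers moved the same way, and their part in these values was not tested either. Without DKO replicate 1, 6 were higher, with a median of 0.24. An unadjusted p under 0.05 was returned for 4 of 7, against 7.5% of tested genes, for 3 with total counts and for 2 without DKO replicate 1. The groups did not overlap in 4 of 7, against 13.2% of tested genes. *Npnt*, the gene of nephronectin, had levels of 7.62, 7.75 and 8.72 in WT and 12.3, 10.3 and 10.3 in the libraries labelled DKO. *Frem1* had levels of 3.86, 3.81 and 3.90 in WT and 6.31, 4.52 and 4.87 in the libraries labelled DKO. Their groups did not overlap and DKO replicate 1 was the highest library in both, with log2 fold changes of 0.45 (95% interval 0.14 to 0.76, edgeR adjusted p = 0.407) and 0.44 (0.10 to 0.78, edgeR adjusted p = 0.479). Without DKO replicate 1 they were 0.34 and 0.27. *Frem3* had too few counts to be tested.

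In the basement membrane core list, 9 of 12 genes were higher in the libraries labelled DKO with TMM scaling and 7 of 12 with total counts, with a median of 0.13. Without DKO replicate 2, 7 of 12 were higher and the median was 0.018. The list held the single DESeq2 call, *Col4a3*, with levels of 0.936, 0.875 and 0.831 in WT and 0.261, 0.489 and 0.461 in the libraries labelled DKO. Its log2 fold change was -1.11 (95% interval -1.69 to -0.54), with an adjusted p of 0.239 in edgeR and 0.0161 in DESeq2. *Col4a4*, whose chain assembles with that of *Col4a3*, had 3.90, 4.06 and 3.37 in WT and 1.80, 1.95 and 2.78 in the libraries labelled DKO (log2 fold change -0.79, 95% interval -1.21 to -0.37, edgeR adjusted p = 0.253, DESeq2 adjusted p = 0.0241).

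The groups did not overlap in 4 of the 12 genes of the list, against 13.2% of tested genes. *Col4a3* and *Col4a4* were lower, and *Hspg2* and *Dag1*, named after their values were seen, were higher in the libraries labelled DKO (log2 fold changes of 0.45 and 0.20). DKO replicate 2 was the highest library for *Hspg2* and *Dag1*, and their fold changes without it are not given. Leaving out any 1 library gave between -1.26 and -0.91 for *Col4a3* and between -1.01 and -0.68 for *Col4a4*. Within title numbers 40972 and 47347 the log2 differences were -1.62 and -0.91 for *Col4a3* and -0.90 and -0.77 for *Col4a4*.

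Of 9 other integrin chains 6 were higher in the libraries labelled DKO (5 with total counts), with a median of 0.07 that was 0.04 without DKO replicate 1 and 0.17 without DKO replicate 2. The groups did not overlap in 3 of them, 2 higher and 1 lower in the DKO group, against 13.2% of tested genes in either direction. The lower one was *Itga1*, named after its values were seen, with a log2 fold change of -0.27. *Itga9* had levels of 3.93, 4.81 and 5.32 in WT and 9.35, 6.54 and 5.85 in the libraries labelled DKO, and *Itga5*, the α chain of the fibronectin receptor, had 8.86, 10.1 and 10.05 and 17.4, 13.9 and 10.2. Both were among the 3, with log2 fold changes of 0.63 (edgeR adjusted p = 0.423) and 0.51 (edgeR adjusted p = 0.530), which became 0.39 and 0.30 without DKO replicate 1.

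Among other plakins, 0 of 4 tested genes were above 0, with a median of -0.08, and 3 of 4 were above 0 with a median of 0.06 without DKO replicate 1. Without DKO replicate 2 the median was -0.26. The smallest p values there belonged to *Ppl* (periplakin, log2 fold change -0.13, which became 0.07 without DKO replicate 1 and -0.32 without DKO replicate 2) and *Macf1* (-0.07, and -0.03 without DKO replicate 1). Among actin-linked adhesion genes 5 of 6 were above 0, with a median of 0.15, and 0.10 without DKO replicate 2. The smallest p values belonged to *Parva* (0.15) and *Fermt2* (0.20, but 0.03 without DKO replicate 1). Among processing and shedding genes 3 of 5 were above 0 (2 with total counts), with a median of 0.03, and -0.03 without DKO replicate 1. The smallest p values belonged to *Bmp1*, a protease that trims laminin chains and procollagens (0.30), and its relative *Tll1* (0.47). Of these 6 genes, *Bmp1* had the lowest edgeR adjusted p, 0.619, and an unadjusted p of 0.0377.

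Markers of the cell types in the sampled skin were read in the same libraries, since the 9 genes are made in several of them. All matched markers had counts, and no marker was at 0 in all libraries. The 5 basal keratinocyte markers summed to 2607, 2762 and 2721 CPM in WT and 2272, 3826 and 2679 in the libraries labelled DKO. This sum was highest in DKO replicate 2 and lowest in DKO replicate 1, as were *Lamb3*, *Itga3* and *Itgb4*, but singly only 2 of the 5 markers were. The same held for 4 of 7 hair matrix and 2 of 7 suprabasal markers, against 11.9% of tested genes. *Krt5*, the most abundant of these markers per kb, had levels of 563, 608 and 568 in WT and 486, 831 and 558 in the libraries labelled DKO. The smallest p values of the list belonged to *Krt15* (log2 fold change -0.60, edgeR adjusted p = 0.485) and *Krt14* (0.39, edgeR adjusted p = 0.819). *Krt14* fell to 0.039 without DKO replicate 2, and *Krt15* was -0.32 without WT replicate 3. Above 0 were 3 of 5 with TMM scaling and 2 of 5 under the other scalings, with a median of 0.01 that was 0.19 without DKO replicate 1 and -0.15 without DKO replicate 2. The part of keratinocyte content in the values of the 9 genes was not tested.

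The summed suprabasal markers were lowest, and the summed hair matrix markers highest, in WT replicate 2. The 7 suprabasal markers summed to 5559.6, 5447 and 5797 CPM in WT and 7383, 8101 and 6804 in the libraries labelled DKO, with 3 of 7 above 0 (4 without DKO replicate 1, 2 without DKO replicate 2). Their median log2 fold change was -0.08, and it was 0.11 without DKO replicate 1 and -0.16 without DKO replicate 2. *Krt10*, their most abundant gene, and *Krt1* had log2 fold changes of 0.48 (edgeR adjusted p = 0.352) and 0.79 (edgeR adjusted p = 0.202, DESeq2 adjusted p = 0.000868). The 7 hair matrix markers summed to 8077, 8391 and 7111 CPM in WT and 2856, 7279 and 5529.6 in the libraries labelled DKO, with 1 of 7 above 0 and a median of -0.21, which was -0.02 without DKO replicate 1 and -0.49 without DKO replicate 2. *Krt25* was the most abundant, with levels of 1087, 1032 and 967 in WT and 417, 959.9 and 695 in the libraries labelled DKO. *Tchh*, with the next smallest p, had a log2 fold change of -0.66, which was -0.36 without DKO replicate 1 and -0.98 without DKO replicate 2.

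Lists of cells below the epidermis were read in the same way. All 17 skeletal muscle markers were higher in the libraries labelled DKO under each scaling tried, with a median log2 fold change of 1.05. edgeR called 0 and DESeq2 10 of them, against 0.0694% and 0.827% of all genes given an adjusted p by each. At an unadjusted p under 0.05 edgeR returned 16, against 7.5% of tested genes. The median was 0.72 without DKO replicate 1. They summed to 7212, 6259.8 and 6570.4 CPM in WT and 21973, 10171 and 10348 in the libraries labelled DKO. *Acta1*, the most abundant, had a log2 fold change of 1.14, and the smallest p values belonged to *Tnni2* (1.23) and *Actn2* (1.29). DKO replicate 1, the highest here, was also the highest for *Nid1*, *Itga6* and *Lama2*. Removing the muscle list before normalization left 9 of 9 genes above 0 with a median of 0.10. That removal changes the scaling only, and the part of muscle content in the values of the 9 genes was not tested.

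All 8 dermal fibroblast markers were above 0 under each scaling tried, with a median of 0.24, and 5 of 8 were without DKO replicate 1, with a median of 0.18. *Col1a1* was the most abundant, and the smallest p values belonged to *Pdgfra* (log2 fold change 0.43) and *Twist2* (0.44), which became 0.24 and 0.23 without DKO replicate 1. The fibroblast markers summed to 14453, 16467 and 17745 CPM in WT and 19549.7, 24631 and 16502 in the libraries labelled DKO.

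Of 8 Schwann cell markers 7 were above 0 (6 under the other scalings), with a median of 0.27 that fell to 0.12 without DKO replicate 1 and 0.14 without DKO replicate 2. *Pmp22* was the most abundant per kb by the mean over all 6 libraries, but not in WT alone. It had a log2 fold change of 0.37 (0.13 without DKO replicate 1), and *Foxd3* had 0.65 (0.34 without DKO replicate 2). Of 8 endothelial markers 6 were above 0, with a median of 0.22, and 4 of 8 with a median of 0.08 without DKO replicate 1. *Cdh5* was the most abundant, and the smallest p values belonged to *Pecam1* (0.34, and 0.17 without DKO replicate 1) and *Cldn5* (0.48, and 0.20 without WT replicate 3 or 0.26 without DKO replicate 2). Of 6 pericyte and smooth muscle markers 4 were above 0, with a median of 0.14, and 2 of 6 with a median of -0.04 without DKO replicate 2. *Acta2* was the most abundant, beside *Pdgfrb* with 0.38 and *Cspg4* with 0.22 (-0.01 without DKO replicate 2).

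The remaining lists also changed with the library left out. Of 6 adipocyte markers 5 were above 0, with a median of 0.19, and 1 of 6 with a median of -0.26 without DKO replicate 1. *Fabp4* was the most abundant, beside *Lipe* with 0.29 (0.19 without DKO replicate 2) and *Cidec* with 0.23 (-0.05 without DKO replicate 1). Of 6 immune markers 4 were above 0, with a median of 0.05, and 2 of 6 with a median of -0.19 without DKO replicate 2. *Lyz2* was the most abundant, beside *Csf1r* with 0.42 and *Cd207* with -0.70 (-0.43 without WT replicate 3). *Cd207* had only 6 to 25 counts per library, and its edgeR adjusted p was 0.819. Of 3 red blood cell markers 0 were above 0, with a median of -0.19 that became -0.59 without DKO replicate 2. *Hbb-bs*, the most abundant, had -0.27 and *Hbb-bt* -0.19, and both were above 0 without DKO replicate 3, at 0.04 and 0.24.

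Across the 6 libraries, the mean of the 9 genes' log2 CPM, each centred on its own mean, was 0.29 in DKO replicate 2 and between -0.10 and -0.02 in the other 5. The genes most like this mean pattern were *Hcfc1* (Pearson r = 0.999), *Coro1b* (0.998), *B4galnt1* (0.997), *Ddit3* (0.995) and *Ssbp3* (0.995), each over 6 libraries. *Hcfc1* had levels of 38.0, 39.7 and 37.5 in WT and 38.0, 52.7 and 39.4 in the libraries labelled DKO. The likeness rests on DKO replicate 2, and 876 genes had an r above 0.9.

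Stretches upstream of annotated starts were available from the RefSeq promoter table (GRCm38.p6) for 5 of the 9 genes, *Dst*, *Lamb3*, *Lama5*, *Itga3* and *Nid1*, with 8 starts in all. At 1 of the 8, the second of *Lamb3*, the window opens in an annotated exon and no stretch was kept. Sequences are shown for *Lamb3* and *Itga3*, which shared their highest and lowest library, and for *Nid1*, which had the smallest p. Each run is 5′ to 3′ on the gene's strand and ends before the first annotated exon base. Capitals mark GGGCGG, the GC box of SP factors, on either strand.
*Lamb3* (chr1:193301744-193301992, plus strand, within an intron of a longer annotated *Lamb3* transcript): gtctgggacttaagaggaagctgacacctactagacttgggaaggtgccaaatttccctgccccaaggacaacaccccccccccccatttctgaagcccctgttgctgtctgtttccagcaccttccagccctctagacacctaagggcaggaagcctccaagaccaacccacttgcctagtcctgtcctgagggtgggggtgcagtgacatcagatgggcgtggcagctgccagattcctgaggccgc
*Itga3* (chr11:95076802-95076964, minus strand, before the gene): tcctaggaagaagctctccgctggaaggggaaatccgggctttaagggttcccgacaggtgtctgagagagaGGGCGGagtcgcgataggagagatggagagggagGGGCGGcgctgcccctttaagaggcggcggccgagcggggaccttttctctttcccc
*Nid1* (chr13:13437352-13437550, plus strand, before the gene): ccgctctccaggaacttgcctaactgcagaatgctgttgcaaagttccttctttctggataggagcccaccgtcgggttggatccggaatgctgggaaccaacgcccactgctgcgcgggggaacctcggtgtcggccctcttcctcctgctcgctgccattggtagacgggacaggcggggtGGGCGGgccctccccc

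The shown stretches held GC boxes at 0 positions for *Lamb3*, 2 for *Itga3* and 1 for *Nid1*. In the 250 bases before each start, exon bases included, GGGCGG on either strand was present at 5 of the 8 starts (62.5%), against 32.7% of 32851 promoters of the same length in the table. GCCNNNGGC, a form of the AP-2 motif, was at 0 of 8 against 13.7%, and TGANTCA, the AP-1 motif, at 0 of 8 against 6.75%. No chromosome was left out of the shares over the whole promoter table. The bases just after each *Dst* start were not found as an unbroken run in an annotated transcript of the gene, and the first of these starts held GGGCGG. Several of the starts belong to the same gene, and the letters describe the windows only.

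Some counts could include reads from neighbours. Whether counting used the strand is not given in the sources used here. Exons on the opposite strand shared 7.66% of the counted length of *Itgb4* (*B230344G16Rik*), 2.52% and 1.11% of *Dst* (*Gm26788* and *A930005N03Rik*), and 1.83% of *Lama3* (*Gm29200*), and *Parp10* shared 1.13% of *Plec* on the same strand. Among the partners, *Rtraf* shared 7.90% of *Nid2*, the denominator of the ratio whose groups did not overlap, and *Gm10575* shared 7.04% of *Cd151*, both on the opposite strand. *Lamb3*, *Lama5*, *Itga3*, *Itga6* and *Nid1* shared no counted exon base with another gene. The counted lengths were long, from 5.71 kb for *Itga3* to 41.2 kb for *Dst*, and over the 5900 tested genes above 5 kb the median log2 fold change was 0.02.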

How the data were processed

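The deposited files hold counts per gene, which the authors made with Trimmomatic 0.36, STAR 2.5.2b on GRCm38 and featureCounts of Subread 1.5.2. The 6 libraries of P4 skin were used. The 7 epidermis files hold a count of 0 for every gene and were left out. Symbols were found for 48970 of 49315 genes.

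All genes that passed filterByExpr were fitted together in edgeR 4.0.16 (R 4.3.3, limma 3.58.1) with TMM scaling and the quasi-likelihood F test, and p values were adjusted by Benjamini-Hochberg over the 20168 genes. Standard errors and 95% intervals were derived from the fold change and the F statistic. The fitting code was also run on simulated counts, with changes larger than those of the members and equal dispersion in both groups. That run does not check effects as small as those reported here. The alternatives were DESeq2 1.42.0, RLE factors, total counts, other filters on low counts (none, or at least 10 counts in every library), the skeletal muscle list removed, a replicate block of the shared title number, a call on the adjusted p alone, and each library left out in turn. Log2 CPM used a prior count of 2. Ratios and group means were compared by exact permutation.

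The genes named are the 9 members, *Kctd1* and *Kctd15*, the partners in ratios, *Col17a1* and *Cd151*, the genes of each list with the 2 smallest p values, the most abundant gene of each cell type list, the 5 genes most like the member mean, and genes whose exons overlap those of members or partners. *Hspg2*, *Dag1* and *Itga1* fall outside this rule and were chosen after their values were seen. Members and lists were chosen with earlier results of these data known. *Eppk1* and *Krt85* had no match. Among the listed genes, 1 direct partner (with 1 planned ratio) and 1 Schwann cell marker are not reported, and lists and ratios were counted without them.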

Additional observations from a re-analysis of the deposited data

How the results depend on the processing

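Of all genes, 14 were called (8 up and 6 down in the DKO group). DESeq2 called 152 (96 and 56), but it was run on 33677 genes rather than 20168, so tool and filter changed together. Of these 33677 genes, 18389 received an adjusted p from DESeq2. With total counts 22 were called (10 and 12), and without the skeletal muscle list 21 (9 and 12). No filter on low counts gave 210 (133 and 77). A replicate block of the shared title number gave 35 (15 and 20), and leaving out 1 library gave 2 to 36. The 9 members had 0 calls under every alternative, and 1 or 2 at an unadjusted p under 0.05 except 0 with total counts and without WT replicate 1, WT replicate 2 or DKO replicate 1. Their lowest adjusted p was 0.318 with the replicate block and 0.219 without DKO replicate 2. With 1 library left out, 5 to 9 members were higher, with a median log2 fold change of 0.01 to 0.21. Of the other 52 genes, 1 was called by DESeq2 and 1 with no filter, and their median was 0.069 to 0.24 with 1 library left out. With total counts *Lama3* was at -0.014 and *Itga3* at -0.00696, each reversed. With 1 library left out the log2 fold change changed sign, ranging from -0.027 to 0.080 for *Lama3*, -0.13 to 0.18 for *Lamb3*, -0.13 to 0.31 for *Lama5*, -0.24 to 0.24 for *Itga3*, -0.19 to 0.29 for *Itgb4*, -0.031 to 0.28 for *Col17a1*, -0.19 to 0.24 for *Cd151*, -0.17 to 0.11 for *Nid2*, -0.32 to 0.068 for *Ppl*, -0.15 to 0.24 for *Krt5*, -0.10 to 0.11 for *Cdh5*, -0.0060 to 0.34 for *Cspg4*, -0.16 to 0.16 for *Acta2*, -0.047 to 0.41 for *Cidec*, -0.29 to 0.18 for *Fabp4*, -0.53 to 0.044 for *Hbb-bs* and -0.66 to 0.24 for *Hbb-bt*. The cause was not tested. Deviations from the group mean correlated across genes at -0.02 to 0.23 in pairs of WT and DKO libraries with the same title number, and at -0.15 to -0.10 in paired libraries with different numbers. With 1 library left out, 4 of the 7 ratios changed sign, reaching a log2 difference of -0.09 for *Itga6* to *Itgb4*, 0.13 for *Lama3* to *Lamb3*, 0.13 for *Lama3* to *Lama5* and 0.05 for *Itga3* to *Itga6*. With the replicate block, 1 skeletal muscle marker was called by edgeR, *Acta1* (log2 fold change 1.09, adjusted p = 0.0396).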
